A study of Mus musculus with 2 samples.

Results

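The genes described here encode 3 small families of muscle scaffold proteins: the cysteine- and glycine-rich LIM proteins (Csrp1, Csrp2 and Csrp3), the FHL proteins, which are built almost entirely of LIM domains (Fhl1, Fhl2 and Fhl3), and the muscle ankyrin repeat proteins (Ankrd1, Ankrd2 and Ankrd23). They were chosen by name, as all probe sets on the array annotated to 1 of these 9 gene symbols and to no other. That gave 12 probe sets for 9 of the 18193 genes named in the table. Esophagus from E18.5 mouse embryos, shortly before birth, was compared between wild-type animals and animals labelled Myf5-/-:MyoD-/-, a double knockout of Myf5 and Myod1. Both samples carry BALB/c in the genotype label, and total RNA of the whole fetal esophagus was hybridized to 1 Affymetrix array per genotype. The sources used here give neither the deleted parts of the genes nor the number of embryos behind an RNA sample. By its title, the series asks how striated muscle takes the place of smooth muscle as the mouse esophagus develops. With 1 array per genotype there is no replicate and no test, so every difference below is between these 2 RNA samples. Sex-linked genes, given below beside Fhl1, also differed between the samples. Sex and genotype therefore cannot be told apart for any gene.

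LIM domains are zinc-binding modules that hold proteins together, and ankyrin repeats do the same with a different fold. In striated muscle many proteins of these families sit in the sarcomere, at the Z-disc or along titin, and some also enter the nucleus, where they act on transcription, which is why they are studied as links between mechanical load and gene expression. Csrp1 and Csrp2 are best known from smooth muscle and other actin-rich cells, and Csrp3 from striated muscle, heart included. Myf5 and Myod1 are transcription factors that set cells on the path to skeletal muscle.

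Signals are MAS5 intensities on a linear scale, and each array was scaled by the authors to the same trimmed mean. A signal of 489, the median of all probe sets of both arrays except array controls, was used as a low-signal limit. A probe set below it on both arrays was treated as not measured, and a probe set below it on 1 array gives only a bound, written "at least". A ratio is null-labelled over wild-type, and a gene takes its brighter probe set. Log2 ratios of probe sets of 1 gene differed with a pooled SD of 0.56, over 14307 probe sets of 5455 genes, and this leaves out all variation between animals.

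Of the 9 members, 8 were measured. Csrp3, Ankrd2 and Fhl2 read at least 2-fold lower on the null-labelled array, which is 3 of 8 measured members, against 5.36% of all 13315 measured genes. None of the 8 read 2-fold higher, against 6.01% of all measured genes. The other 5 measured members were not counted as 2-fold apart. Csrp2 and Fhl1 lay within 2-fold on the lower side, and Csrp1 and Ankrd1 on the higher side. Ankrd23 had only a bound on the lower side, which leaves its size open. At 4-fold, Csrp3 was the 1 lower member (1.07% of all genes) and 0 members were higher (0.158%), and at 1.5-fold 3 members were lower (13.1%) and 1, Csrp1, was higher (18.8%). The median log2 ratio of the 8 members was -0.54, against 0.086 for all measured genes. Whole tissue was profiled, so fewer striated muscle cells and less RNA per cell cannot be told apart.

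**Figure D1:**
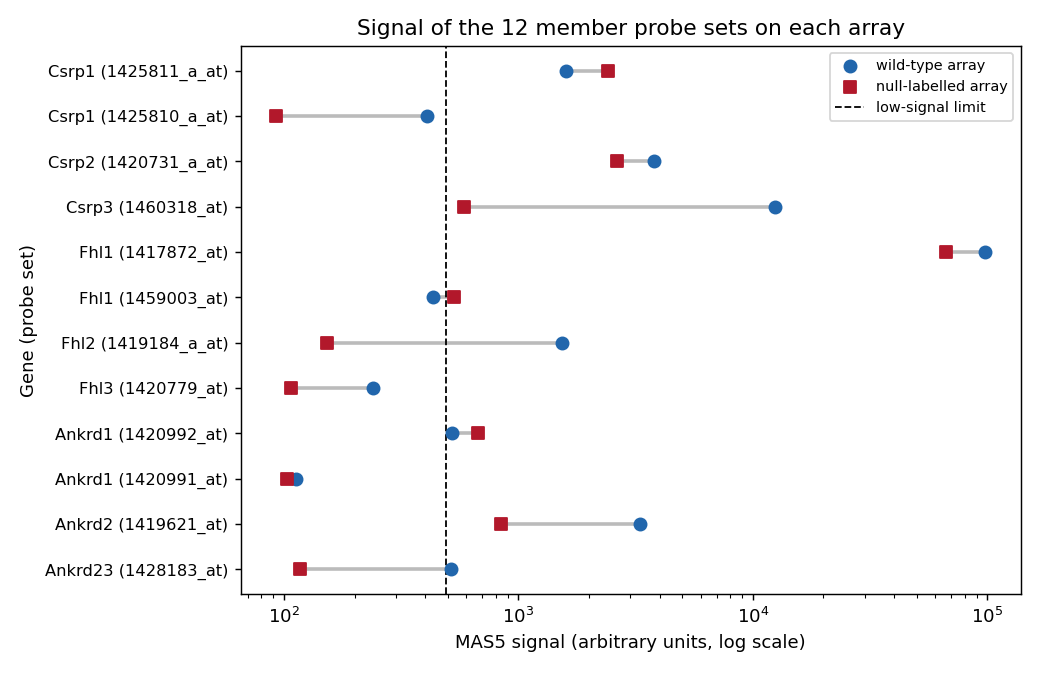
MAS5 signal (log scale) of each of the 12 probe sets of the 9 genes on the wild-type array (blue circles) and the null-labelled array (red squares), 1 array each, with the low-signal limit of 489 as a dashed line. The longest distance between the arrays above the limit belongs to Csrp3 (12481 and 584), and 3 probe sets lie below the limit on both arrays.

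The targeted genes were read first. Myf5 read 4072 in wild-type and 496 in null-labelled esophagus, which is 8.22-fold lower and just above the limit. Myod1 read 2001 and 1698 at the brighter of its probe sets, 1.18-fold lower. Their position against the deletions is unknown here, so Myod1 checks no label, and the text speaks of the null-labelled array. Striated muscle markers were mostly far lower on that array: of 16 measured striated muscle markers, 15 were at least 2-fold lower and 0 higher, with Myh3, the embryonic myosin heavy chain, 161-fold lower, Tnnc2, fast troponin C, at least 94.5-fold and Acta1, skeletal alpha-actin, 74.4-fold. The signals of all 18 listed markers, 2 of them not measured, summed to 396259 in wild-type and 13419 in null-labelled esophagus. Of 12 smooth muscle markers, 3 were 2-fold higher and 1, Des, was lower, at its brighter probe set only. Control probe sets at the 3' end outshone those at the 5' end, a measure of RNA quality, by 12.6 and 14.2 times for beta-actin and by 10.5 and 6.96 times for Gapdh (wild-type first). Poly-A control probe sets form 9 pairs, which are not independent because dap, lys, phe and thr have 2 each. In all 9, the array-to-array log2 ratio was larger at the 3' than at the 5' end, with a median gap of 0.83. The part of this in the members' ratios was not tested.

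The DNA just upstream of annotated starts of the members is shown because Myf5 and Myod1 bind E-boxes, which have the form CANNTG. A reader can thus see which of the lower and the other members carry this form close to such a start. Not every match of CANNTG need be a site for Myf5 or Myod1. Windows of 250 bases before each annotated start came from RefSeq (GRCm38.p6), and 8 of the 9 members had 1 or more, 13 windows in all; Csrp2 had none. They are written 5' to 3' on the gene's own strand. Some lie wholly or partly inside the gene spans given below, among them the Fhl2 and Ankrd2 windows shown. Capitals mark 3 kinds of match, on either strand: E-boxes, the TEAD motif GGAATG, and the CArG box bound by SRF. The windows are Csrp3 at chr7:48848052-48848301 (minus strand), Ankrd2 at chr19:42035777-42036026 (plus), Fhl2 at chr1:43196762-43197011 (minus), Ankrd1 at chr19:36119845-36120094 (minus) and Csrp1 at chr1:135719813-135720062 (plus), for a gene with several windows the one farthest upstream.
Csrp3: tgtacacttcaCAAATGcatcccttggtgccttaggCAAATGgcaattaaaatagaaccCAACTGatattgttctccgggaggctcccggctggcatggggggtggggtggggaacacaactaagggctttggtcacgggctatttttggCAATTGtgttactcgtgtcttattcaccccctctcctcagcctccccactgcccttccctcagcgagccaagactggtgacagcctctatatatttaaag
Ankrd2: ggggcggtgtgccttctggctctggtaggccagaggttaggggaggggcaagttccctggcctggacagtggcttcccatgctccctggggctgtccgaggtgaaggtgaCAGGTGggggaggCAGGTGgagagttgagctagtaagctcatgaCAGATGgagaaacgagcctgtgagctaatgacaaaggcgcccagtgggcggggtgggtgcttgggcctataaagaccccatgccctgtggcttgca
Fhl2: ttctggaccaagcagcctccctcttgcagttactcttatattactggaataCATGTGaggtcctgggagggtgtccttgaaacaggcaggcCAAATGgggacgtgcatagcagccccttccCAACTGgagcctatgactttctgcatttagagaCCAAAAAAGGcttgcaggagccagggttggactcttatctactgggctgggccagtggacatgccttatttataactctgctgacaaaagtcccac
Ankrd1: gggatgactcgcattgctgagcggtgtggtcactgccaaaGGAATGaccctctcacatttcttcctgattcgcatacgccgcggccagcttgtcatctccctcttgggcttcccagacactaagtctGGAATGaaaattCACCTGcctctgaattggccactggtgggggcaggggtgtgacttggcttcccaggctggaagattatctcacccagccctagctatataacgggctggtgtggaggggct
Csrp1: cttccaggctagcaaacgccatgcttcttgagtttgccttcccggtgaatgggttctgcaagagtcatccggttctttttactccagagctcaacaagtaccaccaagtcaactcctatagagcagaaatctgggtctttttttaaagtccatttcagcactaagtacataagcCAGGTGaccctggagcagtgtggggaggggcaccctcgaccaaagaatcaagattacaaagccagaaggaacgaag

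E-boxes stood in 11 of the 13 member windows, against 66.2% of all 32851 windows of this length. Both Csrp3 windows held 4 each, a number reached by 3.84% of all windows. The Ankrd2 window and the upstream Fhl2 window held 3 each, a number reached by 12.2% of all windows. The other Fhl2 window, the Ankrd1 window and both Csrp1 windows held 1 each, and the Fhl1 windows held 1 and 2. The Fhl3 window and the upstream Ankrd23 window held none of these motifs, while the second Ankrd23 window held 2 E-boxes and 1 TEAD motif. The form CAGCTG was in none of the 13 windows, against 13.001% of all. A CArG box stood in 3 windows, both of Fhl2 and the upstream one of Fhl1, against 1.47% of all windows. The Ankrd1 window held 2 TEAD motifs; 12.6% of all windows held at least 1. These are matches of letters only, not sites shown to be bound, and which start the esophagus uses is not known from an array.

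**Figure D2:**
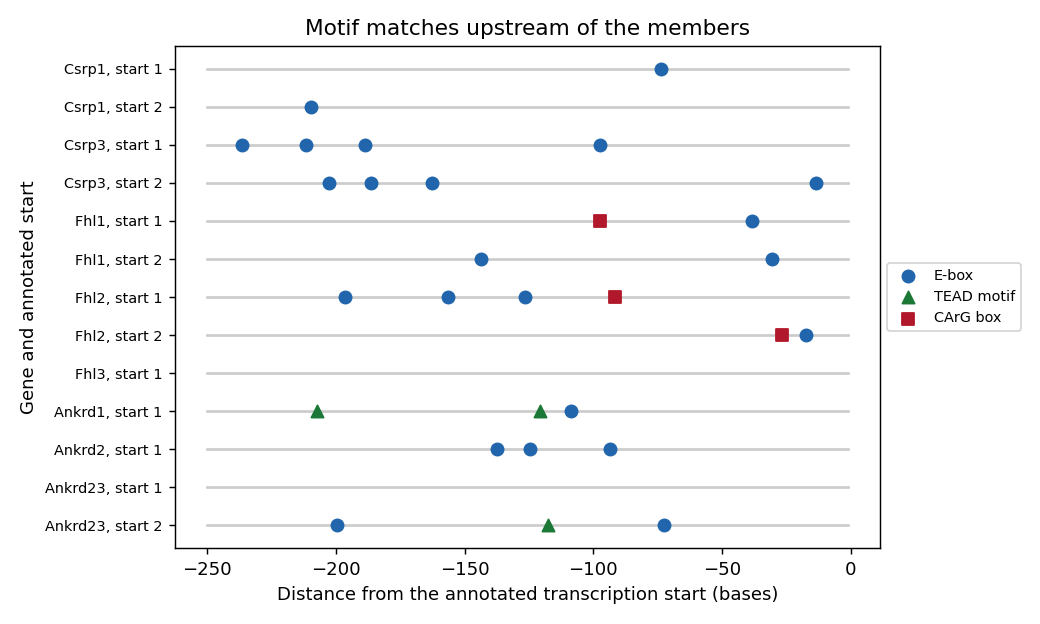
Position of E-boxes (blue circles), TEAD motifs (green triangles) and CArG boxes (red squares) in the 250 bases upstream of the 13 annotated starts of 8 members, in bases from the start. Csrp3 has 4 E-boxes at each start, Ankrd2 has 3, and Csrp1 and Ankrd1 have 1 at each start. In the order drawn, Fhl2 has 3 and 1, Fhl1 has 1 and 2, Ankrd23 has 0 and 2, and Fhl3 has 0.

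The Csrp genes pointed in different directions. Csrp3, or muscle LIM protein, a Z-disc and nuclear cofactor of striated muscle, lies at chr7:48830398-48848051. Its single probe set read 12481 in wild-type and 584 in null-labelled esophagus. This is 21.4-fold lower, a log2 ratio of -4.42, and ranks 17 from the lowest among the 13315 measured genes. The remaining signal was just above the limit, so it is near the dimmest value that counts as measured here.

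Csrp1, which bundles actin filaments with alpha-actinin and is abundant in smooth muscle, lies at chr1:135720063-135752229. Its brighter probe set read 1589.95 and 2420.15, 1.52-fold higher on the null-labelled array. The log2 ratio of 0.61 is close to the pooled SD between probe sets of 1 gene. A second Csrp1 probe set, at 407 and 92.9, did not reach the limit in either sample. A limit lowered to the 25th percentile of signals makes it at least 2.42-fold lower, so the direction of Csrp1 rests on its brighter probe set.

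Csrp2, a relative found in smooth muscle and in mesenchymal cells, lies at chr10:110920176-110939514. Its 1 probe set read 3781 and 2629, 1.44-fold lower, a log2 ratio of -0.52. Between paralogs, the log2 ratio of Csrp1 exceeded that of Csrp3 by 5.02 and that of Csrp2 exceeded that of Csrp3 by 3.89. Csrp1 and Csrp2 were 1.13 apart. In the order given, these differences were 6.37, 4.93 and 1.43 times the SD of a difference. That SD follows from the SD of 0.56 between probe sets of 1 gene. It leaves out all variation between animals, so these multiples are no test. In these RNA samples the ratios were unequal within the family, with the striated muscle member by far the lowest.

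**Figure D3:**
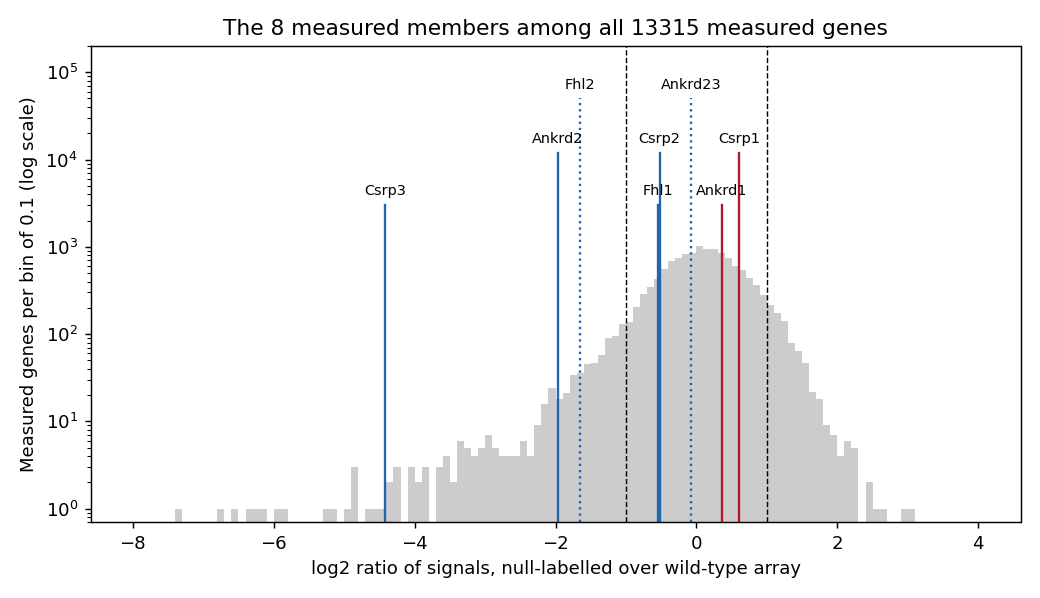
Log2 ratio (null-labelled over wild-type) for all 13315 measured genes (grey, number per bin of 0.1 on a log scale), with a line for each of the 8 measured members; blue lines lie below 0, red lines above, dotted lines are bounds, and dashed black lines mark 2-fold. Csrp3 at -4.42 lies in the far lower tail, and Ankrd2 (-1.97) and Fhl2 (at most -1.65) in its shoulder. The other 5 are drawn inside the 2-fold lines, where Ankrd23 is only a bound.

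Among the FHL genes, Fhl2 read lower and Fhl1 stayed bright. Fhl2, a LIM-only cofactor best known from heart muscle, that binds integrins, titin and transcription factors, lies at chr1:43123071-43198343. Its 1 probe set read 1535 in wild-type and 153 in null-labelled esophagus. The second value is below the limit, so Fhl2 was at least 3.14-fold lower. The size of this bound follows the limit, from at least 9.13-fold for a limit set at the 25th percentile to at least 1.10-fold for one at the 75th.

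Fhl1, the FHL protein mutated in several inherited myopathies and abundant in skeletal muscle, lies at chrX:56731209-56793346. The brighter of its probe sets gave 97750 and 66912, 1.46-fold lower, a log2 ratio of -0.55. Its second probe set read 430 and 530.27, with a bound of 0.12 in the other direction. The Fhl1 signal was thus still high on the array where most striated muscle markers were many-fold lower. Because Fhl1 is X-linked, the sex-linked genes Xist and Eif2s3y, which no list held, are given beside it. Xist read lower on the null-labelled array at all 3 of its probe sets (42465 and 24254 at the brightest). The Y-linked gene Eif2s3y read 10.6 and 2402. Sex and genotype therefore cannot be told apart for Fhl1, nor for any other gene here. The 443 measured X-linked genes had a median log2 ratio of 0.061, and 15.8% of them lay below Fhl1. Fhl3, which is expressed in skeletal muscle and lies at chr4:124695964-124708611, read 239 and 108 at its 1 probe set, under the limit in both samples, and is not measured here.

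The muscle ankyrin repeat proteins bind the N2A region of titin and, for Ankrd1, myopalladin. Ankrd2, expressed mainly in slow skeletal fibers, lies at chr19:42035917-42045111. Its 1 probe set read 3309 and 846, 3.91-fold lower, a log2 ratio of -1.97, with both signals above the limit. It ranks 152 from the lowest among all measured genes.

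Ankrd1, the cardiac ankyrin repeat protein, which responds to stretch and is a standard target gene of YAP, lies at chr19:36111965-36119844. Its brighter probe set read 523 and 672.5, close to the limit on both arrays. This is 1.29-fold higher, and with quantile or loess normalization it turned lower, with log2 ratios of -0.12 and -0.15. Its second probe set, at 112 and 103, did not reach the limit in either sample. Ankrd1 was thus dim in both samples, and no direction can be given.

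Ankrd23, the diabetes-related ankyrin repeat protein of skeletal and heart muscle, lies at chr1:36530193-36536556. Its 1 probe set read 516 and 117, so with the limit it was at least 1.05-fold lower. A limit at the 25th percentile instead gives at least 3.07-fold lower. It stands next to the limit on the wild-type array, and so its count as lower or not depends on where the limit lies. The log2 ratio of Ankrd1 exceeded that of Ankrd2 by 2.33.

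Csrp3, Fhl2, Ankrd1 and Ankrd23 are also expressed in heart, so heart muscle markers were read beside them. Of 14, 12 were measured, 9 of them with a bound only; 2 were 2-fold lower, 3 were higher, 8 of the 12 had a ratio above 0, and the median was 0.57. A limit at the 75th percentile left 4 measured, whose median was -0.40. Myl3 (at least 5.55-fold) and Sln (at least 9.06-fold) were the lower ones, and skeletal muscle expresses both; the remaining Myl3 probe set went the other way. Tbx5, a cardiac and limb transcription factor (at least 3.19-fold), Ryr2, the cardiac ryanodine receptor (at least 2.47-fold), and Nkx2-5, a cardiac transcription factor (630 and 1296, 2.06-fold), were higher. Hand2, a transcription factor of heart and other tissues, read 7501 and 12186. Nppa (380 and 366, natriuretic peptide) and Tnni3 (39.4 and 31.3, cardiac troponin I) were below the limit on both arrays, and Myh6 (297 and 849) on the wild-type array. The signals of all 14 summed to 19122 in wild-type and 20619.7 in null-labelled esophagus, and those of the 12 other than Sln and Myl3 to 11974 and 20524. Sln and Myl3 are the 2 that read 2-fold lower, so leaving them out favours the null-labelled array by construction. Hand2 is the largest part of these sums, which include signals below the limit. Ryr2, Nkx2-5, Hand2, Nppa, Tnni3 and Myh6 were named after their values were seen. The part of heart tissue in the members' ratios was not tested.

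The proteins that the members bind were read as lists. Of 11 partners of the ankyrin repeat proteins, 8 were 2-fold lower and 0 higher, with a median log2 ratio of -2.17, which was -3.08 for a limit at the 25th percentile and -1.07 for one at the 75th. Ttn, the giant spring of the sarcomere, was 105-fold lower, Myot, a Z-disc protein, at least 17.0-fold and Smpx, a small muscle protein, 14.9-fold. Mypn, myopalladin itself, read 2829 and 564, 5.02-fold lower, and its nonmuscle relative Palld read 5781 and 8428.5, 1.46-fold higher. Mypn and Palld were named after their values were seen.

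Of 12 measured Z-disc partners of Csrp3, 6 were 2-fold lower and 0 higher, with a median of -0.83. Actn2, sarcomeric alpha-actinin, was at least 35.2-fold lower, Myoz2, a calcineurin-binding Z-disc protein, at least 16.6-fold, and Ldb3, a PDZ-LIM protein, 8.84-fold at its brightest probe set and 1.56-fold at another. Tcap, telethonin, which binds Csrp3 at the Z-disc, read 613 and 1044, 1.70-fold higher, and was named after its values were seen. The calcineurin subunits Ppp3ca, Ppp3cb and Ppp3r1 lay between 1.07-fold and 1.21-fold lower, and were also named after their values were seen.

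Partners of the smooth muscle paralogs lay closer to a ratio of 1. Of 6 partners of Csrp1 and Csrp2, 0 were 2-fold apart in either direction, with a median of 0.10. The list holds the actin-crosslink partners Actn1, Actn4 and Zyx and the transcription factors Srf, Gata4 and Gata6. Actn4, a nonmuscle alpha-actinin, was 1.75-fold lower. Gata6 and Gata4 were 1.52-fold and at least 1.44-fold higher, and both were dim (491 and 745, 277 and 703). Of 12 measured partners of the FHL proteins, 2 were lower, 0 were higher and 9 had a ratio above 0, with a median of 0.35. The lower ones were Mybpc1, the slow myosin binding protein C (6.98-fold, and 2.30-fold at a second probe set), and the kinase Map2k2 (2.34-fold, and 1.28-fold at its second probe set). Map2k1 was 1.69-fold lower.

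**Figure D4:**
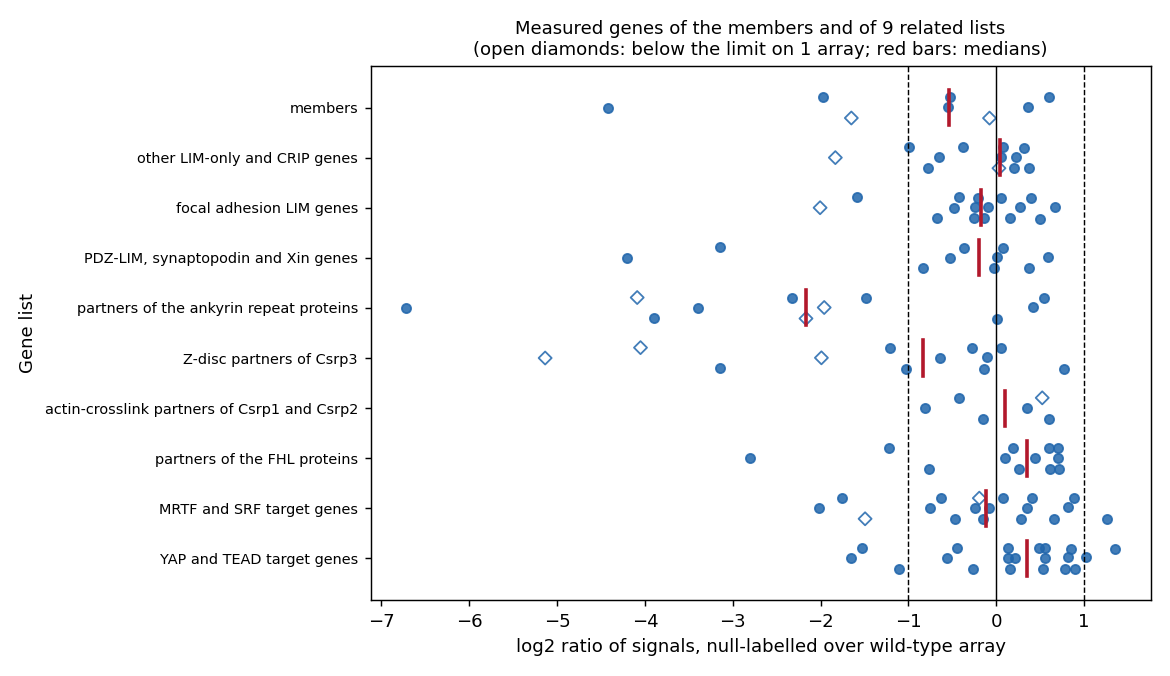
Log2 ratio (null-labelled over wild-type) for the measured genes of the members and of 9 lists of related proteins, 1 symbol per gene, with open diamonds for genes below the limit on 1 array, red bars for list medians and dashed lines at 2-fold. The partners of the ankyrin repeat proteins have a median of -2.17 and the partners of the FHL proteins one of 0.35.

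Other LIM proteins were read for comparison. Of 12 measured LIM-only and CRIP genes, 1 was 2-fold lower, Lmcd1, a LIM protein of muscle (at least 3.56-fold), and 0 were higher; the lower count was 2 with centring, quantile or loess normalization and 0 for a limit at the 75th percentile. Lmo2 and Lmo4, LIM-only transcription cofactors, were 1.99-fold and 1.71-fold lower, and the list median was 0.040. Of 16 focal adhesion LIM genes, 2 were lower and 0 higher, with a median of -0.17. Ablim3, an actin-binding LIM protein, was at least 4.01-fold lower, Limch1 3.08-fold at its second probe set and a similar amount at its brightest, and Lima1 1.59-fold at its brightest probe set, while another Lima1 probe set read 891 and 1580, 1.77-fold higher. Of 10 measured PDZ-LIM, synaptopodin and Xin genes, 2 were lower and 0 higher, with a median of -0.19. These 2 were Synpo2l, a Z-disc protein (18.4-fold at its brightest probe set, 2.53-fold at another, and the other direction at the dimmest), and Ldb3; Pdlim3, an actinin-associated LIM protein, was 1.78-fold lower. The lists were not tested against each other.

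Targets of the regulators known to act on the members were read last. Of 18 target genes of MRTF and SRF, 3 were lower and 1 higher, with a median of -0.11 that was 0.039 with quantile normalization. The 3 lower ones were the immediate early genes Egr1 (4.05-fold), Fos (3.37-fold) and Egr2 (at least 2.81-fold, and at least 1.57-fold at its second probe set). Of 20 target genes of YAP and TEAD, the pathway for which Ankrd1 is a standard readout, 3 were lower and 2 higher, and 14 had a ratio above 0, with a median of 0.35 (0.13 to 0.37 over the alternatives). The 2 higher became 1 with centring, quantile or loess normalization and 0 with the median over probe sets or the limit at the 75th percentile. Tgfb2, a growth factor, was 3.14-fold lower, the stress gene Gadd45b 2.87-fold lower at its brightest probe set, with a dim one going the other way, and Crim1 2.55-fold higher, or 1.54-fold at its second probe set. Ccn1 and Ccn2, named after their values were seen, went opposite ways, at 1.47-fold higher and 2.16-fold lower.

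**Figure D5:**
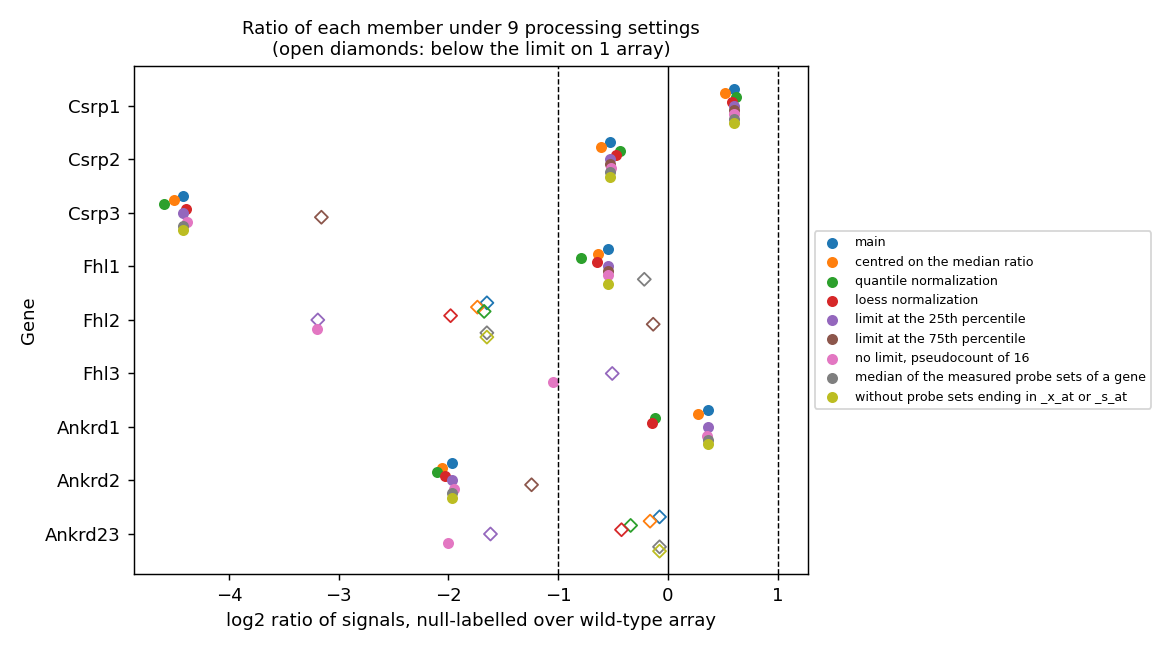
Log2 ratio of each member under the setting used in the text and 8 alternatives (colours), with open diamonds where a signal lay below the limit on 1 array and dashed lines at 2-fold. Csrp3 and Ankrd2 lie beyond 2-fold lower in every setting drawn, Fhl2 in all but the limit at the 75th percentile, and Ankrd1 lies on both sides of 0.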

How the data were processed

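Esophagus RNA (6 µg of total RNA per sample, biotin-labelled) was measured on 1 array per genotype at E18.5. The deposited intensities are signals per probe set on a linear scale, for which the authors used MAS5, according to the submitters' processing notes, while its version, its settings and any detection calls are not given in the sources available. MAS5 combines the probes of a probe set and scales each array, and both arrays had the same 2% trimmed mean. No further scaling was applied. Of 45101 probe sets, 64 are array controls. Of the rest, 34945 have 1 gene symbol in the platform annotation held by GEO, 932 have several and 9160 are unnamed here; symbols were updated by Entrez ID through RefSeq (GRCm38.p6), which held 34741 of the IDs.

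Signals below the limit were raised to it before log2 ratios were taken. No test was possible. Named genes are Myf5, Myod1, all members with every probe set, and up to 3 measured genes of each pathway and marker list with the largest ratio, of which some marker genes were left out for length; genes outside the rule are marked. The members and lists were chosen with earlier results of these data known. Of the marker lists not described above, 2-fold lower and higher genes numbered 3 and 0 of 12 for epithelium, 0 and 1 of 5 for cartilage and tendon, 1 and 0 of 8 for fibroblasts, 1 and 0 of 6 for neurons and glia, 1 and 1 of 7 for endothelium and blood, and 1 and 0 of 5 for lung and thyroid. As alternatives, ratios were centred on their median, arrays were normalized by quantiles or loess (span 0.3), the limit was moved to the 25th or the 75th percentile or replaced by a pseudocount of 16, a gene took the median over its probe sets, probe sets ending in _x_at or _s_at were dropped, and thresholds of 4-fold and 1.5-fold were used. The calculation was tested on simulated arrays. Python 3.11.15, numpy 2.4.6, pandas 2.3.3, statsmodels 0.14.6 and matplotlib 3.10.9 were used. The number of arrays limits the precision.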

Additional observations from a re-analysis of the deposited data

How the results depend on the processing

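The count of 3 members lower and 0 higher was the same with centring, quantile or loess normalization, with the median over a gene's probe sets, and without probe sets ending in _x_at or _s_at. It was 4 lower for a limit at the 25th percentile (7.45% of all genes lower), 2 for one at the 75th (4.7995%), and 5 with no limit and a pseudocount of 16 (9.37%), where Ankrd23 and Fhl3 joined (log2 ratios of -2.003 and -1.04). A 4-fold threshold left 1 lower, and a 1.5-fold threshold gave 1 higher. The members' median log2 ratio lay between -1.04 and -0.37. Csrp3 was between -4.59 and -3.16 and Ankrd2 between -2.10 and -1.24 over 8 alternatives, both 2-fold lower in all 8. Fhl2 was 2-fold lower in 7 of 8 and read -0.13 for the 75th percentile, where the bound is short by construction. Among the 8, the median over probe sets and the dropping of _x_at and _s_at could not move Csrp3, Ankrd2 or Fhl2. Each has 1 probe set, with neither ending, so these settings are no check on the count of 3 lower members. Csrp1 stayed above 0 in all 8 (0.52 to 0.62) and Csrp2 below 0 (-0.61 to -0.44). At the probe sets used, both genes lie above every limit, so only centring, quantile or loess normalization and the pseudocount could move them. The dimmer Csrp1 probe set, lower on the null-labelled array, entered none of the 8, so they are no check on the direction of Csrp1. No paired analysis was possible because each genotype has 1 array. Signal near the limit restricts what can be said of Ankrd1, Ankrd23 and Fhl3.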
